A study of Mus musculus with 10 samples.

Results

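The 32 genes described here encode the assembly machinery and the oxidation and ether lipid enzymes of peroxisomes. They are all the rows of the count table with those symbols, 32 of 38355 genes. The rule names genes and uses no measured value, but the members were chosen with earlier results of these data known. Peroxisomes are small membrane-bound organelles that import their enzymes fully folded. They shorten very long and branched fatty acids that mitochondria cannot take up, and they begin the synthesis of ether lipids such as the plasmalogens, which are abundant in heart muscle. Many of their genes are known targets of the fatty acid receptor PPAR alpha in rodent liver.

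The libraries were made from heart muscle cells (cardiomyocytes) of adult FVB/N mice, isolated by Langendorff perfusion, in which the removed heart is perfused through its own vessels, and left untreated. Of the 10 mice, 5 were wildtype (WT) and 5 carried the Epac1-PLN transgene, a heart-specific FRET biosensor encoded by the genome and named for the cAMP-binding protein Epac1 and for phospholamban. Each genotype held 2 males and 3 females. The labels do not state which promoter drives the sensor, how many founder lines were used, or the age of the mice beyond adult.

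Library totals ranged from 13266303 to 20983754 counts in WT and from 10632224 to 15959196 counts in Epac1-PLN libraries. An exact 2-sided permutation test did not detect a difference between the genotypes (p = 0.183), which does not show that depth was equal. Reads at Rapgef3, the gene for Epac1, rose from 12.8 ± 2.14 to 1507 ± 197 CPM (SD, n = 5 per group), where CPM is the read count scaled to a fixed total per library. The 8 markers of heart muscle cells summed to 86594 to 99460.0 CPM in WT and to 83858 to 98245 CPM in Epac1-PLN cells. Pln, the phospholamban gene, is among them, so reads of the transgene may add to the Epac1-PLN sums. Fibroblast markers summed to 537 to 866 and 558 to 815 CPM, endothelial markers to 595 to 1072 and 547 to 1147 CPM, smooth muscle and pericyte markers to 287 to 741 and 432 to 827 CPM, and macrophage and leukocyte markers to 23.0 to 49.3 and 27.6 to 52.9 CPM. These ranges overlapped between the genotypes. Log2 fold changes, Epac1-PLN over WT, were above 0 for 7 of 8 endothelial markers (median 0.11). They were above 0 for 6 of 7 tested macrophage and leukocyte markers (median 0.20). The counts were 4 of 8 for heart muscle cells, 4 of 8 for fibroblasts and 3 of 6 for smooth muscle and pericytes. By edgeR, 0 of these markers had an adjusted p below 0.05. The part of cell composition in the members' values was not tested. Markers of fat cells and of hepatocytes were near 0, with sums of at most 1.69 and 0.940 CPM. Epac1-PLN replicate 4 correlated least well with the rest (median Spearman coefficient 0.9828).

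All 32 genes passed the filter on low counts. Their counts per library ran from 59 for Pex11g to 38106 for Ech1. In WT cells the levels per kilobase (kb) of exon covered a wide range. Ech1, an isomerase that prepares unsaturated acyl chains for oxidation in mitochondria and peroxisomes, was the most abundant at 758 ± 55.0 CPM per kb. Phyh, the hydroxylase that opens the alpha-oxidation of phytanic acid, followed at 599.7 ± 26.6 CPM per kb, and Crat, carnitine acetyltransferase, at 196 ± 18.3 CPM per kb. These 3 genes held 61.3 ± 0.979% of all the members' CPM in WT (SD, n = 5).

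Next in the order of WT levels came Hsdl2 (156 ± 6.79 CPM per kb), Gnpat (111 ± 3.55), Pxmp2 (81.0 ± 7.99) and Hsd17b4 (56.0 ± 2.62), all per kb of exon. Down to Hsd17b4, each mean lay below the one before it by more than their summed SDs. Further down the order is less sure. Of the 31 neighbouring pairs, 19 differed by less than the sum of their SDs, among them Hsd17b4, Pex19 (51.5 ± 3.74) and Scp2 (50.4 ± 3.83). At the low end stood Pex11g (2.18 ± 0.33 CPM per kb), Pex26 (2.43 ± 0.12), Hacl1 (2.73 ± 0.21) and Abcd2 (2.86 ± 0.45), and none of these neighbours lay apart. Exon lengths are those of all annotated transcripts of a gene together, which lowers the value of a gene with long alternative ends such as Pex7 (12.092 kb).

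**Figure D1:**
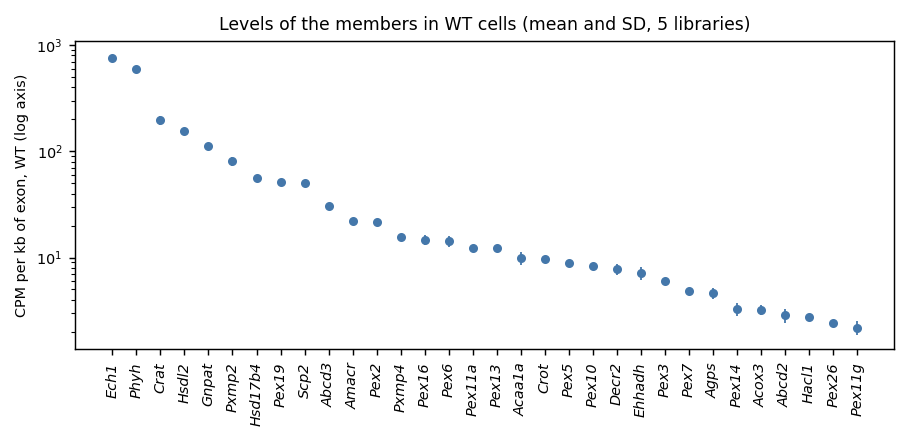
Mean level of each of the 32 members in the 5 WT libraries, in CPM per kb of exon on a log axis, with bars for the SD. Ech1 and Phyh stand above the rest, and the 4 scarcest genes lie between 2.18 and 2.86 CPM per kb.

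Promoter sequences from RefSeq (GRCm38.p6) were matched by symbol for 25 of the 32 members, with 29 windows in all. The 250 bases before the annotated start are printed for Hsdl2, Pex7 and Phyh, whose genotype groups do not overlap (below), and for Scp2, which has a nuclear receptor core site. Capitals mark AGGTCA, the core that nuclear receptors bind, and GGGCGG, the GC box, on either strand. The GC box was added to the search after these sequences were seen.
Hsdl2, chr4:59581313-59581562, plus strand: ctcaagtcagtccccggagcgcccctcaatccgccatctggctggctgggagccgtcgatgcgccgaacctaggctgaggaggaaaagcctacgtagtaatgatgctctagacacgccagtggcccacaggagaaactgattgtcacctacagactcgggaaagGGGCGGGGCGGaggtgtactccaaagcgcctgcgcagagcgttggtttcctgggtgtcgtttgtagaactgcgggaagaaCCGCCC
Pex7, chr10:19907675-19907924, minus strand: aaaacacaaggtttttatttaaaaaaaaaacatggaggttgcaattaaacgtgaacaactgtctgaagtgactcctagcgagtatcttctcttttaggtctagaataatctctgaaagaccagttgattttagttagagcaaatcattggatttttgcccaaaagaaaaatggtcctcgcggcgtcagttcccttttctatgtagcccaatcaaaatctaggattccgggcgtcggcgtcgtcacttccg
Phyh, chr2:4918746-4918995, plus strand: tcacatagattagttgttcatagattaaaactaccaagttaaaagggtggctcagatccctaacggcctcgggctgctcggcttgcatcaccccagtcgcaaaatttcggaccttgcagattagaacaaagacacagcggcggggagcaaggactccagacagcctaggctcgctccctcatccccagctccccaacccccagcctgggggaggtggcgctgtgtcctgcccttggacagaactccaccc
Scp2, chr4:108118548-108118797, minus strand: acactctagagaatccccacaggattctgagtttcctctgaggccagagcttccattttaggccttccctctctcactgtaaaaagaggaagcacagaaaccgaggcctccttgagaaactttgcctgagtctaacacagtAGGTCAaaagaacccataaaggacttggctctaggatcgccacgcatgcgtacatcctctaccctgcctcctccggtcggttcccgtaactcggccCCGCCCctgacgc
The Hsdl2 window holds 3 GC boxes, which start 86, 81 and 6 bases before the gene's start, and the first pair share 1 base. The Scp2 window holds AGGTCA at -109 and a GC box at -13 from the start, which lies inside the gene interval of the deposited table. The Pex7 and Phyh windows hold neither.

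Across the members, AGGTCA was found in 2 of 29 windows (Pex11g and Scp2), against 14.0% of the 32851 RefSeq windows of the same length. An exact match to the consensus PPAR response element, AGGTCA repeated with 1 base between the copies, was found in 0 of 29, against 0.0335% of all windows. TCAAGGTCA, the extended site of the estrogen-related receptors, was also found in 0 of 29, against 0.387%. Exact matches are so rare that 0 of 29 is likely for any such set, so neither count sets the members apart. Both longer motifs contain AGGTCA. The GC box was found in 20 of 29 windows, against 32.7% of all. The windows of all genes were not limited to genes that passed the filter here, whereas all the members did. Whether other genes that passed it hold GC boxes as often was not tested. These counts describe letters in 250 bases before the start and say nothing of enhancers or of binding.

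Between the genotypes, the members lay lower in Epac1-PLN cells as a rule, by small amounts. Log2 fold changes, Epac1-PLN over WT, were below 0 for 28 of 32 members, against 49.0% of all 12629 tested genes. Their median was -0.17, against 0.00 for all tested genes, and they ran from -0.43 (Ehhadh) to 0.06 (Agps). Of the members, 1 passed the threshold of 0.05 on the adjusted p by edgeR's quasi-likelihood test, Hsdl2, which fell. In the same test 0.641% of all genes passed in either direction and 0.198% as lower. At an unadjusted p below 0.05 stood 15 members, all of them lower, against 5.4% of all genes in that direction and 12.2% in either. In bulk RNA, fewer cells of a type and less RNA per cell cannot be told apart.

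**Figure D2:**
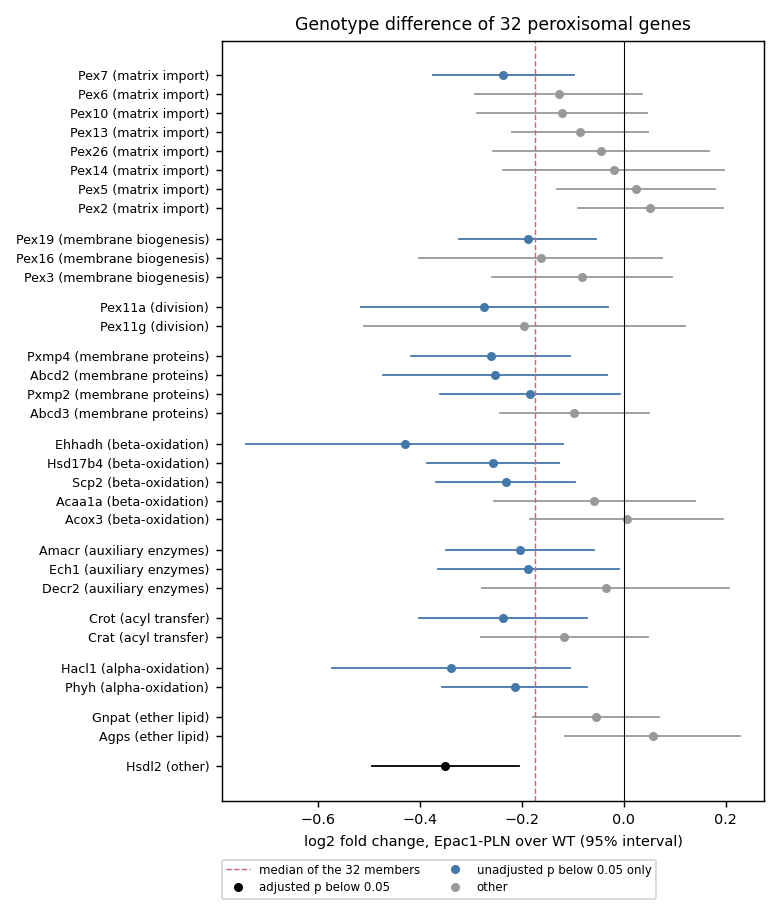
Log2 fold change (Epac1-PLN over WT) of each member with its 95% interval, grouped by role, from edgeR's fit of 5 WT and 5 Epac1-PLN libraries with sex in the model. The point for Hsdl2 (black) passed the adjusted threshold, 14 others (blue) have an unadjusted p below 0.05 only, and the dashed line marks the members' median of -0.17.

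Hsdl2 (ENSMUSG00000028383, chromosome 4, 59581563 to 59618689 on mm10) encodes a short-chain dehydrogenase with a sterol-carrier domain that is targeted to peroxisomes. Its levels were 430.2, 431, 427, 471 and 425 CPM in WT replicates 1 to 5. They were 365, 338, 342, 300.5 and 372 CPM in Epac1-PLN replicates 1 to 5. All 5 Epac1-PLN libraries lay below all 5 WT libraries, with the lowest value in replicate 4. The means were 437 ± 19.0 and 343 ± 28.2 CPM (SD, n = 5 per group). This is a fall of 21.5%, with a log2 fold change of -0.35 ± 0.07 (SE), a 95% interval of -0.49 to -0.21 and an adjusted p of 0.0413 by edgeR.

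The call on Hsdl2 sits at the threshold. Without Epac1-PLN replicate 4 it held (-0.31, adjusted p = 0.0405, edgeR). Without any of the other libraries in turn (WT replicates 1, 2, 3, 4 and 5 and Epac1-PLN replicates 1, 2, 3 and 5) the log2 fold change stayed between -0.37 and -0.31, but the adjusted p was 0.0555 to 0.113.

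Of the 32 members, 4 had groups without overlap, all lower: Hsdl2, Hsd17b4, Phyh and Pex7. Of all tested genes, 1.24% were without overlap and lower, and 2.75% without overlap in either direction. Hsd17b4 (ENSMUSG00000024507, chromosome 18, 50128201 to 50196269), the D-bifunctional protein, carries out the middle steps of peroxisomal beta-oxidation, hydration and dehydrogenation, for very long and branched chains. It was at 197, 178, 193, 186 and 199.9 CPM in WT replicates 1 to 5 and at 172, 156, 156, 155 and 159 CPM in Epac1-PLN replicates 1 to 5. The Epac1-PLN libraries other than replicate 1 lay within a few CPM of each other. The log2 fold change was -0.26 ± 0.06 (SE), with an adjusted p of 0.0774 by edgeR, so Hsd17b4 was not called.

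The other enzymes of the beta-oxidation spiral lay at various distances from WT. Ehhadh, the L-bifunctional protein, had the lowest fold change of the members, with a wide spread: 21.3 ± 3.02 CPM in WT and 15.9 ± 3.17 CPM in Epac1-PLN cells, a log2 fold change of -0.43 ± 0.14 (SE; adjusted p = 0.224, edgeR). Acox3, the oxidase that starts the oxidation of branched acyl-CoAs, stood at 37.2 ± 4.01 and 37.4 ± 3.15 CPM, a log2 fold change of 0.01, or -0.01 with upper-quartile scaling. Acaa1a, a thiolase that closes the spiral, stood at 43.9 ± 6.17 and 42.3 ± 1.28 CPM. Acaa1a shares 12.4% of its 50-base words with its paralog Acaa1b, so reads may be split between them.

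Scp2 (ENSMUSG00000028603, chromosome 4, 108043839 to 108144998) encodes both a thiolase for branched chains and the sterol carrier protein made from the end of the same gene. It was at 185, 187, 155, 181 and 168 CPM in WT replicates 1 to 5. In Epac1-PLN replicates 1 to 5 it was at 154, 156, 144, 137 and 155 CPM. WT replicate 3 was the lowest of its group and overlapped the Epac1-PLN range, in which replicate 4 was the lowest. The log2 fold change was -0.23 ± 0.06 (SE; adjusted p = 0.135, edgeR). Scp2 shares 29.7% of its 50-base words with the pseudogene Scp2-ps2, and counts per gene do not separate the thiolase from the carrier.

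The auxiliary enzymes and the acyl transferases lay lower as well without being called. Ech1 stood at 1731 ± 126 CPM in WT and 1522 ± 168 CPM in Epac1-PLN cells (log2 fold change -0.19). Amacr, the racemase that turns branched acyl-CoAs into the form the oxidases accept, stood at 58.2 ± 3.26 and 50.6 ± 3.13 CPM (-0.20). Decr2, the peroxisomal dienoyl-CoA reductase, had a log2 fold change of -0.04 ± 0.11 (SE).

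Crot, carnitine octanoyltransferase, hands shortened chains on to mitochondria. It was at 55.0, 53.4, 48.6, 58.3 and 48.3 CPM in WT replicates 1 to 5 and at 49.0, 48.1, 41.3, 42.4 and 43.0 CPM in Epac1-PLN replicates 1 to 5. Only Epac1-PLN replicate 1 reached into the WT range. Its log2 fold change was -0.24 ± 0.08 (SE; adjusted p = 0.206, edgeR). Crat, which does the same for acetyl groups and is also a mitochondrial enzyme, stood at 1056 ± 98.5 and 975 ± 59.5 CPM (-0.12 ± 0.08 SE).

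Alpha-oxidation removes single carbons from phytanic acid and other 3-methyl fatty acids before beta-oxidation. Phyh (ENSMUSG00000026664, chromosome 2, 4919019 to 4938730), its first enzyme, was at 1129, 1212, 1081, 1149.6 and 1104 CPM in WT replicates 1 to 5. It was at 998, 999, 1023, 843 and 1032 CPM in Epac1-PLN replicates 1 to 5. The groups did not overlap, and Epac1-PLN replicate 4 lay well below the others of its group. The log2 fold change was -0.21 ± 0.07 (SE), with an adjusted p of 0.188 by edgeR.

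Hacl1, the lyase that follows Phyh, was much scarcer. It was at 14.5, 12.4, 13.6, 14.4 and 12.5 CPM in WT replicates 1 to 5 and at 12.4, 9.67, 8.80, 11.5 and 11.3 CPM in Epac1-PLN replicates 1 to 5. The groups met at their edges, since Epac1-PLN replicate 1 reached the lowest WT values. Its log2 fold change was -0.34 ± 0.11 (SE; adjusted p = 0.205, edgeR). Of its exon bases, 31.1% overlap Gm49387 on the same strand.

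The ether lipid enzymes were near their WT levels. Gnpat, which acylates dihydroxyacetone phosphate, was at 399 ± 12.7 CPM in WT and 385 ± 19.0 CPM in Epac1-PLN cells, a log2 fold change of -0.05 with a 95% interval of -0.18 to 0.07. Agps, which then puts in the ether bond, was at 43.7 ± 5.41 and 45.4 ± 2.69 CPM, a log2 fold change of 0.06 with an interval of -0.11 to 0.23. Whether they differ from the oxidation enzymes in their response was not tested.

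Among the receptors that carry enzymes into the organelle, Pex5 and Pex7 gave different values. Pex5 binds the common C-terminal targeting signal and stood at 35.0 ± 2.17 CPM in WT and 35.6 ± 2.27 CPM in Epac1-PLN cells (log2 fold change 0.02 ± 0.07 SE). Pex7 (ENSMUSG00000020003, chromosome 10, 19859929 to 19907689) binds the N-terminal signal of a few proteins, among them Phyh, Agps and the thiolase. It was at 62.6, 53.3, 55.0, 59.8 and 59.8 CPM in WT replicates 1 to 5. It was at 50.9, 48.2, 49.5, 47.1 and 51.0 CPM in Epac1-PLN replicates 1 to 5. The groups did not overlap, with a log2 fold change of -0.24 ± 0.06 (SE; adjusted p = 0.136, edgeR). The genes of its cargo proteins had log2 fold changes of -0.21 (Phyh), -0.06 (Acaa1a) and 0.06 (Agps).

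The rest of the import machinery was not clearly apart from its WT level. The docking proteins Pex13 and Pex14 had log2 fold changes of -0.08 and -0.02. The ubiquitin ligases Pex2 and Pex10, which recycle Pex5, had 0.05 and -0.12. Pex6, the motor that pulls Pex5 out of the membrane, had -0.13, and Pex26, its membrane anchor, had -0.04. The adjusted p of these 6 genes was 0.547 or above by edgeR, and the 95% intervals reached from -0.29 (Pex6, Pex10) to 0.20 (Pex2, Pex14), so changes of that size remain possible. Of the exon bases of Pex14, 28.3% overlap Gm17029 on the other strand.

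Pex3, Pex16 and Pex19 insert the membrane proteins of the organelle. Pex19, their soluble chaperone, was at 217, 199, 185, 181 and 199.9 CPM in WT replicates 1 to 5 and at 188, 157, 167, 177 and 174 CPM in Epac1-PLN replicates 1 to 5. Only Epac1-PLN replicate 1 lay within the WT range. Its log2 fold change was -0.19 ± 0.06 (SE; adjusted p = 0.215, edgeR). Pex3 and Pex16 had -0.08 and -0.16, with adjusted p-values of 0.764 and 0.614 by edgeR.

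Pex11a and Pex11g bend and elongate the membrane before peroxisomes divide, and Pex11a is known as inducible by PPAR alpha in rodent liver. Pex11a stood at 39.1 ± 2.89 CPM in WT and 32.7 ± 6.30 CPM in Epac1-PLN cells (-0.27 ± 0.11 SE on the log2 scale; edgeR adjusted p = 0.336). Its lowest value, 23.5 CPM, was in Epac1-PLN replicate 4, and the males of that genotype, at 37.8 and 38.9 CPM, were within the WT range of 35.5 to 42.0 CPM. Without replicate 4 the log2 fold change was -0.18 ± 0.09 (SE; edgeR adjusted p = 0.448). Pex11g, the scarcest member, had a log2 fold change of -0.19 (adjusted p = 0.660, edgeR), and 41.1% of its exon bases overlap Gm44775 on the other strand.

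The membrane transporters and channels lay lower in all 4 cases, and 0 were called by edgeR, with 3 at an unadjusted p below 0.05. Pxmp4, a peroxisomal membrane protein whose function is poorly known, was at 51.3, 46.5, 46.9, 44.9 and 50.9 CPM in WT replicates 1 to 5. It was at 44.9, 41.9, 38.6, 35.5 and 40.0 CPM in Epac1-PLN replicates 1 to 5. The groups met at 44.9 CPM, and Epac1-PLN replicate 4 was the lowest. The log2 fold change was -0.26 ± 0.07 (SE; adjusted p = 0.138, edgeR).

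Abcd2, a transporter of very long chain acyl-CoAs, was at 19.8, 17.9, 12.9, 18.3 and 16.2 CPM in WT replicates 1 to 5. It was at 15.7, 12.9, 14.1, 13.6 and 15.0 CPM in Epac1-PLN replicates 1 to 5. WT replicate 3 was as low as the lowest Epac1-PLN library, and the other WT libraries lay above the Epac1-PLN range. The log2 fold change was -0.25 ± 0.10 (SE; adjusted p = 0.322, edgeR). Abcd3, the more abundant transporter of branched chains, had -0.10, and Pxmp2, a membrane channel, had -0.18.

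**Figure D3:**
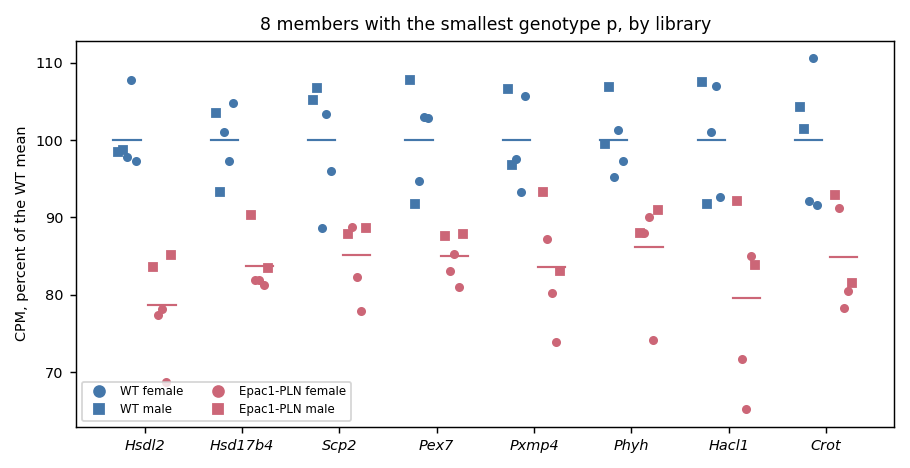
CPM of the 8 members with the smallest genotype p in every library, as a percent of the gene's WT mean, with circles for females, squares for males and lines for the group means. For Hsdl2, Hsd17b4, Pex7 and Phyh all 5 Epac1-PLN libraries lie below all 5 WT libraries.

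Library by library, the members' mean was lower in the Epac1-PLN cells. The mean over the 32 members of log2 CPM, relative to the WT mean of each gene, was 0.08, -0.04, -0.03, -0.03 and 0.02 in WT replicates 1 to 5. It was -0.05, -0.14, -0.17, -0.24 and -0.15 in Epac1-PLN replicates 1 to 5. The genotypes did not overlap, though the highest Epac1-PLN library (replicate 1) and the lowest WT library (replicate 2) were close. Among the 13 peroxins the Epac1-PLN range was -0.20 to -0.01, overlapping the WT range of -0.07 to 0.06. Among the other 19 members it was -0.27 to -0.08, against -0.07 to 0.09 in WT. Without Epac1-PLN replicate 4, 29 of 32 members were below 0 and the median over the members was -0.14 on the log2 scale. Leaving it out turned the sign of 3 members near 0, Pex26 (-0.04 to 0.02), Pex5 (0.02 to -0.01) and Acox3 (0.01 to -0.04). It moved Abcd3 from -0.10 to -0.05, Pex3 from -0.08 to -0.04, Gnpat from -0.05 to -0.03 and Decr2 from -0.04 to -0.02, and none of these was called by edgeR with or without it. The part of that library's low correlation, or of depth, in the other values was not tested.

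The sum of the members' CPM was 6394 ± 221 in WT and 5670.1 ± 359.8 in Epac1-PLN libraries (SD over 5 libraries each), a sum set mostly by Ech1, Phyh and Crat. For those 3 genes together it was 3922 ± 183 and 3476 ± 286 CPM. The 13 peroxins summed to 612 ± 23.8 CPM in WT and to 559 ± 22.3 CPM in Epac1-PLN cells.

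**Figure D4:**
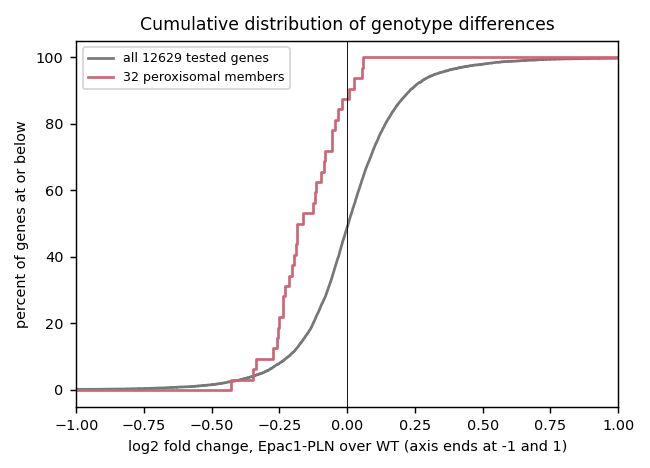
Cumulative percent of genes at or below each log2 fold change (Epac1-PLN over WT) for the 32 members and for all 12629 tested genes. The members' curve lies to the left, with a median of -0.17 against 0.00.

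Members also varied between libraries of the same genotype. Over the 496 pairs of members, the correlation of log2 CPM across the 10 libraries, after the genotype means were subtracted, had a median Pearson r of 0.21. The largest r was between Ehhadh and Decr2 (r = 0.92, exact permutation p = 0.00118 within genotypes and 0.164 adjusted; Spearman rho = 0.81, exact permutation p = 0.0140 and 0.464 adjusted). Without the 2 libraries farthest from the median of Ehhadh, r was 0.93. The most negative was between Pex19 and Agps (r = -0.91, exact permutation p = 0.000556 and 0.138 adjusted; rho = -0.95, exact permutation p = 6.94e-05 and 0.0172 adjusted), with r = -0.92 without the 2 libraries farthest from the median of Pex19. By Pearson's r, 0 pairs passed the adjusted threshold. By Spearman's rho 2 passed, Pex19 with Agps, and Hsd17b4 with Gnpat (rho = 0.95, exact permutation p = 6.94e-05 and 0.0172 adjusted; r = 0.75, exact permutation p = 0.0135 and 0.365 adjusted). Without the 2 libraries farthest from the median of Hsd17b4, r was 0.46, so the linear relation of that pair rests on them. Sex was neither subtracted nor kept apart in the permutations, so differences by sex stay in these correlations. In the edgeR fit Pex19 was lower in females and Agps higher (log2 differences -0.13 ± 0.06 and 0.14 ± 0.08 SE, neither called). Those of Hsd17b4 and Gnpat were -0.03 and -0.04. The part of sex in these pairs was not tested.

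Sex gave no called member. Of the 32 members, 0 passed by edgeR, DESeq2 or limma-voom, and 2 had an unadjusted p below 0.05 by edgeR, against 10.4% of all genes at that level and 0.34% called. In the same model 27 members were lower in females, against 48.0% of all genes, with a median log2 difference of -0.07.

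The smallest sex p was that of Pex6, which was at 54.0, 45.3, 55.1, 51.9 and 62.7 CPM in WT replicates 1 to 5, of which the first pair are males. In Epac1-PLN replicates 1 to 5, of which the first and the last are males, it was at 46.5, 47.9, 55.0, 52.6 and 44.3 CPM. The male of WT replicate 1 lay among the females, and the other 3 males lay below all females. Its means were 54.2 ± 4.93 CPM in 6 females and 47.5 ± 4.38 CPM in 4 males, a log2 difference of 0.19 ± 0.08 (SE; adjusted p = 0.416, edgeR).

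The next were lower in females. Abcd2 was at 14.6 ± 2.15 CPM in females and 17.1 ± 2.21 CPM in males (-0.22 ± 0.10; adjusted p = 0.476, edgeR), and Pex19 at 178 ± 15.0 and 194 ± 18.3 CPM (-0.13 ± 0.06; adjusted p = 0.499, edgeR). Pex13, from the docking complex, was at 58.7, 61.8, 55.4, 56.0 and 51.4 CPM in WT replicates 1 to 5. It was at 58.5, 53.2, 53.3, 49.3 and 52.5 CPM in Epac1-PLN replicates 1 to 5. In WT its males were the highest, while in Epac1-PLN cells 1 male lay among the females (sex difference -0.12 ± 0.06; adjusted p = 0.515, edgeR).

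A term for genotype by sex asked whether the genotype difference itself depended on sex. Of the members, 0 passed by edgeR, DESeq2 or limma-voom, beside 0.0% of all genes by edgeR. At an unadjusted p below 0.05 stood 1 member, Pex11a (difference between the sexes' log2 fold changes, females minus males, -0.46 ± 0.20 SE; adjusted p = 0.993, edgeR), against 3.75% of all genes. Without Epac1-PLN replicate 4, a female, the Pex11a term was -0.32 ± 0.16 (SE; unadjusted p = 0.0662, edgeR), and leaving out each of 7 of the 10 libraries (WT replicates 1, 2, 4 and 5 and Epac1-PLN replicates 1, 4 and 5) gave an unadjusted p of 0.0560 to 0.110. Fitted alone, the 6 females gave a median log2 fold change of -0.18 over the members with 28 below 0. The 4 males gave -0.14 with 22 below 0. The sign differed between the sexes for 8 members, Abcd3, Acox3, Crat, Gnpat, Pex3, Pex11a, Pex14 and Pex26. Hsdl2 was at -0.43 in females and -0.22 in males, and its interaction term was -0.21 ± 0.13 (SE; adjusted p = 0.993, edgeR).

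Most other genes of peroxisomes also lay lower. From a list of 62 further peroxisomal genes, 50 passed the filter, 37 of them lower and 13 higher, where 49.0% of all tested genes lay below 0, and the median of their log2 fold changes was -0.08. Of these 1 was called and fell: Ephx2, the soluble epoxide hydrolase, from 527 ± 35.1 to 407 ± 44.3 CPM (log2 change -0.38 ± 0.08 SE; edgeR adjusted p = 0.0467). This call was lost without each library other than WT replicate 2 (adjusted p = 0.0548 to 0.163). The next by p were Acsl1, which activates long fatty acids (-0.27 ± 0.07 SE; adjusted p = 0.0832, edgeR), and Idh1, an NADPH-producing isocitrate dehydrogenase of cytosol and peroxisomes (-0.28 ± 0.07 SE; adjusted p = 0.0868, edgeR).

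The mitochondrial beta-oxidation genes, which take over the chains that peroxisomes shorten, were lower in 20 of 21 cases, with a median of -0.20. Of these 1 was called and fell, Cpt1a, a carnitine palmitoyltransferase (-0.55 ± 0.09 SE; adjusted p = 0.0135, edgeR), though not without WT replicate 1 (adjusted p = 0.0667) or Epac1-PLN replicate 3 (0.0628). Acsl1, also on this list, and Decr1, the mitochondrial dienoyl-CoA reductase (-0.30 ± 0.08 SE; adjusted p = 0.134, edgeR), followed. Per library the mean of this list relative to WT was -0.07 to 0.09 in WT and -0.37 to -0.07 in Epac1-PLN cells, so the ranges met at their edges, with the lowest value again in replicate 4. No test compared the size of the peroxisomal and the mitochondrial differences.

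**Figure D5:**
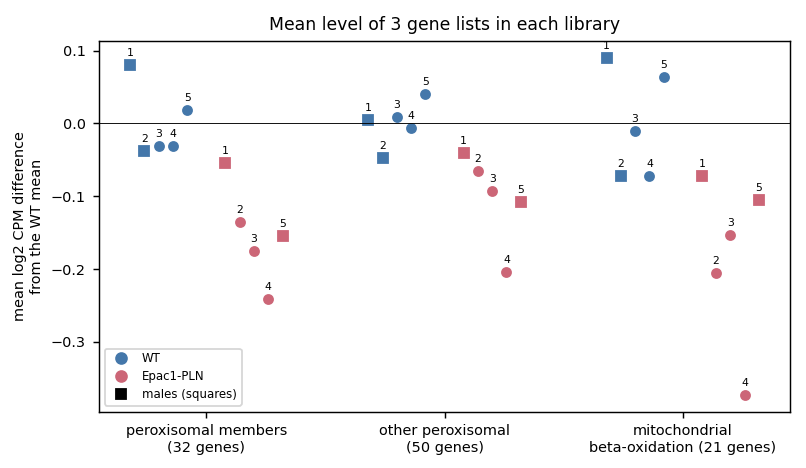
Mean log2 CPM of each library relative to the WT mean, over the 32 members, 50 other peroxisomal genes and 21 mitochondrial beta-oxidation genes (Acsl1 is on both of the latter), with replicate numbers above the points and squares for males. Epac1-PLN replicate 4 is the lowest in each list, at -0.24, -0.20 and -0.37.

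The receptors and coactivators that are known to act on these genes gave values of both signs. Of 10 PPAR, RXR, ERR and PGC-1 genes, 0 were called by edgeR, and 2 had an unadjusted p below 0.05, both higher: Ppargc1a, which encodes the coactivator PGC-1 alpha (0.49 ± 0.19 SE on the log2 scale; edgeR adjusted p = 0.339, from 150.8 ± 22.6 and 212 ± 65.7 CPM), and Ppard (0.26 ± 0.11 SE; adjusted p = 0.342, edgeR). Ppara, the PPAR alpha gene, was at 49.3 ± 16.9 CPM in WT and 44.7 ± 12.3 CPM in Epac1-PLN cells, a log2 fold change of -0.09 ± 0.21 (SE). Pparg had 0.05, Rxra 0.03, Rxrb -0.05, Rxrg -0.11, Esrra 0.09, Esrrg -0.15 and Ppargc1b 0.09. Their part in the members' levels was not tested.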

How the data were processed

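RNA sequencing libraries of adult mouse cardiomyocytes, made from total RNA with a TruSeq kit and run on a HiSeq2000, were counted per Ensembl gene. The authors deposited raw counts and a normalized signal, which equals each count divided by 1 factor per library. Whole reads recovered from that signal matched the deposited counts for 100% of values (tolerance 0.01) and gave 81 called genes, as did the counts. Per the submitters' processing notes, STAR 2.3.0 and HTSeq 0.5.4 were used with mm10, beside CASAVA 1.8.2, DESeq, DESeq2 and FastQC 0.10.0. The settings, the annotation release and whether strand was used are not given there, so reads of genes that overlap on opposite strands may be shared.

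Genes were kept with filterByExpr of edgeR 4.0.16 (12629 of 38355), scaled by TMM and tested in R 4.3.3 by its quasi-likelihood test with robust dispersions, on sex and genotype. P-values were adjusted by Benjamini-Hochberg over all tested genes at 0.05. The alternatives used DESeq2 1.42.0, limma 3.58.1, other scalings, filters and covariates, females alone and each library left out. Males alone and the recovered reads were added after seeing the data. The tests were checked on simulated counts. Standard errors are the absolute log2 fold change over the square root of F. Levels are CPM with TMM factors.

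Exon lengths, overlaps and shared 50-base words came from GENCODE M21, where 24 of 32 members have the coordinates of the deposited table. Pairs of members were compared by exact permutation within genotypes, with the sexes mixed. Values of every library are given for members called, for the 8 smallest genotype p, for groups without overlap and for the 4 smallest sex p. Of the other lists, called genes and the 3 smallest p are named. The members, lists and rules were chosen with earlier results of these data known. P-values of the fits weigh a difference against the variation between individual mice, with dispersions moderated across genes.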

Additional observations from a re-analysis of the deposited data

Results flagged for a closer look

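In 64 groups of 5 libraries (32 members, each genotype), 5 held a library far from the other 4. Chance flags about 1 in 20 groups. Pex14 in WT replicate 4 was at 15.2 CPM, below 21.3 to 22.0 CPM in the other WT libraries. Hsdl2 in the same library was at 471 CPM, above 425 to 431 CPM. In Epac1-PLN replicate 4, Pxmp2 was at 69.2 CPM, below 86.1 to 92.8 CPM, and Phyh at 843 CPM, below 998 to 1032 CPM. Hsd17b4 in Epac1-PLN replicate 1 was at 172 CPM, above 155 to 159 CPM.

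Of 8 members whose fold change had opposite signs in females alone and in males alone, Gnpat is the one whose genotypes did not overlap in either sex. In the 3 females of each genotype it was at 359 to 379 CPM in Epac1-PLN cells and 391 to 421 CPM in WT. In the 2 males of each it was at 401 and 406 CPM in Epac1-PLN cells and at 389 and 400.0 CPM in WT. Fitted alone, the log2 fold change was -0.11 ± 0.08 (SE) in females and 0.03 ± 0.10 (SE) in males. The interaction term was -0.15 ± 0.11 on the log2 scale (SE; females minus males) and was not called (adjusted p = 0.993, edgeR). With 2 males per genotype, and with no share of all tested genes given for this pattern, it cannot be set against a background.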

How the results depend on the processing

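The members' median stayed between -0.19 and -0.14, and 22 (males alone) to 29 members lay below 0, under all 21 alternatives. The members given in every library kept their direction in all of them. Called members numbered 3 with DESeq2 (Hsdl2, Hsd17b4 and Scp2) and 2 with no filter on low counts (Hsdl2 and Ehhadh), but 0 without sex in the model, in females alone and in males alone, and 0 to 1 with a library left out. Members at an unadjusted p below 0.05 then numbered 14, 7, 2 and, with a library left out, 12 to 16. In the main fit 12.2% of all genes stood at that level in either direction and 5.4% as lower. That share is not given for the alternatives, so their member counts, here and below, cannot be set against it. Hsdl2 was not called in 13 of 21 alternatives (adjusted p 0.000517 to 0.452 over all). The 21 include the recovered reads, which equal the deposited counts, so that fit repeats the main one. Over all genes, 81 were called, 260 with DESeq2, 498 with no filter, 37 without sex, 4 in females, 13 in males and 14 to 103 with a library left out. The other peroxisomal genes gave 5 calls with DESeq2, 0 without sex and 0 to 2 with a library left out. The mitochondrial genes gave 4 with DESeq2 and 0 to 1 with a library left out. For sex and for the interaction 0 members were called under each of 16 alternatives, with 0 to 5 and 0 to 1 members at an unadjusted p below 0.05. Deviations of same-numbered libraries from their genotype means had an r of -0.30 to 0.35. Sex was not subtracted, and replicates 2 and 5 differ in sex between the genotypes, so these values cannot decide whether the numbers pair libraries. With a replicate block 2 genes and 0 members were called, with 13 members at an unadjusted p below 0.05. The cause was not tested for any of these. Depth limits Pex11g most, with 59 to 193 counts per library.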
